A study of Mus musculus with 30 samples.

Results

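*Tmem176a*, *Tmem176b*, *Ms4a6b*, *Ms4a6c*, *Ms4a6d* and *Ms4a4c* are 6 of the 47643 genes whose RNA was measured in mouse microglia with and without *Bin1*. They were selected on measured values, after earlier results of these libraries had shown low *Tmem176a* FPKM in male mice without microglial *Bin1*, late-numbered mice included. The other 5 were added as its paralog and as relatives of the Ms4a family. The FPKM of male Homo against male WT libraries thus gave the choice, and they are given below as a description without a test.

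The 30 libraries come from microglia sorted as CD11b+ CD45med cells from 3 month-old mice, with 1 mouse number per label. Homo mice were Bin1 flox/flox::Cx3Cr1-Cre+ (5 males, 5 females), and Het mice were Bin1 wt/flox::Cx3Cr1-Cre+ (6 males, 5 females). WT mice (5 males, 4 females) were Bin1 wt/flox without Cre, as a figure legend of the study gives them, so a floxed allele was present in every group. The Cre sits in the *Cx3cr1* gene, so Cre, loss of 1 *Cx3cr1* copy and loss of the first copy of *Bin1* coincide in Cre-positive mice and cannot be told apart. This Cre is active in other macrophages as well as in microglia. The labels' own protocol text speaks of newborn microglia kept in culture and given Tau, LPS and ATP rather than of sorted cells; the study's methods were followed, and which account holds was not tested.

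The labels also carry a mouse number. Numbers up to that of WT-F-0122 are called early here, and those from that of WT-M-0176 onwards late. Early numbers were held by 3 male Homo, 2 male Het and 1 female WT mouse, and by no male WT mouse. *Bin1* was 230.3 to 290 FPKM (a unit that corrects fragment counts for transcript length and for the size of the library) in the 9 WT libraries and 39.5 to 55.6 FPKM in the 10 Homo libraries. The library labelled Het-F-0206 had 42.7 FPKM of *Bin1* and only 13.9 FPKM of *Cx3cr1*, whereas the other Het females had 152 to 164 and 1048 to 1243 FPKM. Het-M-0199 had 51.8 FPKM of *Bin1*, inside the range of the Homo libraries. Part of the results that rest on Het mice are therefore also given without Het-F-0206 or Het-M-0199. Among these alternatives, those without Het-M-0199 in the exact tests were chosen after seeing the data. *P2ry12*, a receptor that marks microglia, ranged from 3509 to 5359 FPKM over the libraries. Of 6 T and NK cell markers, *Cd3e* and *Cd3g* were at 0 in all libraries, and the list summed to at most 0.425 FPKM. The 5 B cell markers summed to 262 to 356 FPKM, with *Ighm* at 233 to 327 FPKM.

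MS4A proteins cross the membrane 4 times, and their genes lie side by side in a cluster. MS4A1 is CD20 of B cells and MS4A2 is the beta chain of the high-affinity IgE receptor of mast cells, whereas several other members are found on macrophages and microglia. In humans the *MS4A* locus is associated with Alzheimer's disease and with the amount of soluble TREM2. TMEM176A and TMEM176B are distant relatives with the same membrane topology. They are made by myeloid cells, reside largely in internal membranes, and are described as cation channels of immature dendritic cells.

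In the GENCODE M21 annotation of GRCm38 (mm10, the build the authors aligned to), *Tmem176b* (ENSMUSG00000029810) lies on the minus strand of chromosome 6 from 48833818 to 48841496. *Tmem176a* (ENSMUSG00000023367) lies on the plus strand from 48840919 to 48847071. The start regions of the genes overlap by 578 bases. The Nextera XT kit of the study's methods does not mark strand, so with it reads of that overlap cannot be assigned by strand. The labels' protocol text names TruSeq libraries instead, and which account holds was not tested. *Ms4a4c* (ENSMUSG00000024675, 11404770 to 11427246), *Ms4a6c* (ENSMUSG00000079419, 11469366 to 11482192) and *Ms4a6b* (ENSMUSG00000024677, 11516512 to 11531256) lie on the plus strand of chromosome 19. *Ms4a6d* (ENSMUSG00000024679, 11586604 to 11604849) lies on the minus strand. They are among the 19 Ms4a genes of a cluster of 679 kb, and the stretch from *Ms4a4c* to *Ms4a6d* holds 6 genes in 200.1 kb. *Ms4a6b*, *Ms4a6c* and *Ms4a6d* are close paralogs, and RSEM divides fragments that match more than 1 of them by estimate, so the division between them is uncertain.

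The sequences before the RefSeq gene starts are shown because the *Tmem176* genes share one such stretch and moved together across the libraries, whereas *Ms4a4c*, shown for comparison, has its own. They were taken from RefSeq on GRCm38.p6, which had 8 windows of 300 bases for 5 of the 6 members; for *Ms4a6d* there was none. Both are printed 5′ to 3′ on the plus strand. Capitals mark GAGGAA, the core bound by the myeloid factor PU.1, and GGAAGT, a core of the wider ETS family, which was added after the sequences had been seen. The first stretch lies between the RefSeq starts of the *Tmem176* genes (chr6:48841375-48841482), and the second lies before the RefSeq start of *Ms4a4c* (chr19:11407411-11407660). GENCODE also annotates transcripts that start further upstream, so the first stretch lies inside the overlap of the *Tmem176* genes given above and the second inside the GENCODE gene *Ms4a4c*.
Tmem176a and Tmem176b: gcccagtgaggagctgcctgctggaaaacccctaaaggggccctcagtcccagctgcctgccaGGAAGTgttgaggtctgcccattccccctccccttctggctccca
Ms4a4c: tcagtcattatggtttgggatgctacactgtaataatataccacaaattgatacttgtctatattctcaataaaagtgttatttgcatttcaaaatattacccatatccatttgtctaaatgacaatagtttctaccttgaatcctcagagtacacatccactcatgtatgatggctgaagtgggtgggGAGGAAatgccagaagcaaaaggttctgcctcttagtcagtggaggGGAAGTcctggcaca

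The *Tmem176* stretch was 63.9% G and C, against 38.8% in that of *Ms4a4c*. On both strands of the 300-base windows, GAGGAA was in 4 of 8 member windows, against 28.3% of the 32851 windows of all genes. GGAAGT was in 6 of 8, against 23.8%. It was added after these sequences had been seen, so nothing is read from its count. The windows of the *Tmem176* genes overlap, so the member windows are not independent. The motif CCAAT was in 0 of the 8 windows, against 37.4% of all windows, and the TATA box motif TATAAA was also in 0 of 8, against 13.6%. These matches describe letters only.

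*Tmem176b* was the most abundant of the 6 genes at 314 ± 61.6 FPKM (SD, n = 30), ahead of *Tmem176a* at 121 ± 24.6, *Ms4a6d* at 112 ± 12.1 and *Ms4a6b* at 106 ± 32.7. FPKM are per length, so levels may be set side by side between genes. *Ms4a6c* had 23.6 ± 4.67 FPKM and *Ms4a4c* only 3.23 ± 1.25. None of the 6 was at 0 in any library. Relative to its mean, *Ms4a6d* varied least, from 85.2 to 137 FPKM, whereas *Ms4a6b* ran from 72.1 to 213. Of the 15 other Ms4a genes in the table, *Ms4a7* (mean 2.80 FPKM, from 1.22 to 6.30), a gene of border macrophages, and *Ms4a4a* (mean 0.941 FPKM, from 0 to 2.49) reached the mean of 0.1 FPKM required for testing. *Ms4a10*, *Ms4a12*, *Ms4a13*, *Ms4a18* and *Ms4a5* were listed at 0 in all 30 libraries. *Ms4a1* (CD20) was at most 0.141 FPKM and *Ms4a2* at most 0.0431 FPKM, so the B cell and mast cell members were at or near 0.

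**Figure D1:**
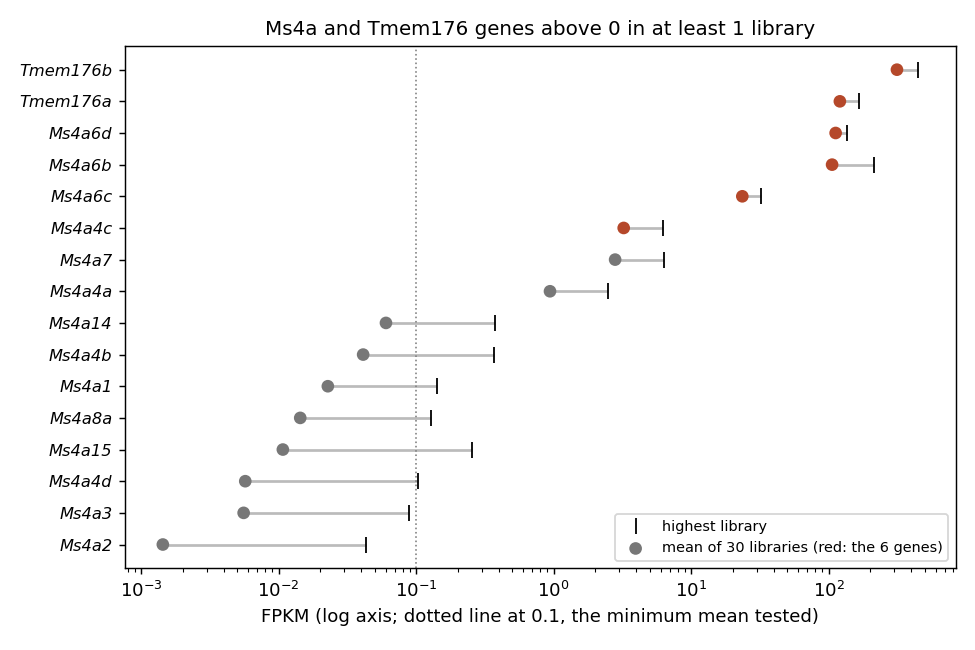
Mean FPKM over 30 libraries (dots, red for the 6 genes) and the highest library (bars) of the Ms4a and Tmem176 genes above 0 in at least 1 library, on a log axis. The means fall from 314 FPKM for Tmem176b to 3.23 for Ms4a4c among the 6 genes, and 8 genes lie right of the dotted line at 0.1 FPKM.

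The group means of *Tmem176a* were ordered from male WT (148 FPKM) and female WT (145) through female Het (127), female Homo (115) and male Het (111) to male Homo (84.9). *Tmem176b* had the same order, from 379 FPKM in male WT over 364, 326, 311 and 285 to 235 in male Homo. *Ms4a6b* and *Ms4a6c* were instead highest in male Homo (140 and 27.1 FPKM) and second highest in male Het mice (119 and 26.1 FPKM). *Ms4a6d* stayed between 102 FPKM in male WT and 120 in male Homo. *Ms4a4c* was lowest in female WT (2.31 FPKM) and highest in female Homo (3.94 FPKM). Neighbours in each of these orders overlapped in their libraries, for all 6 genes.

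**Figure D2:**
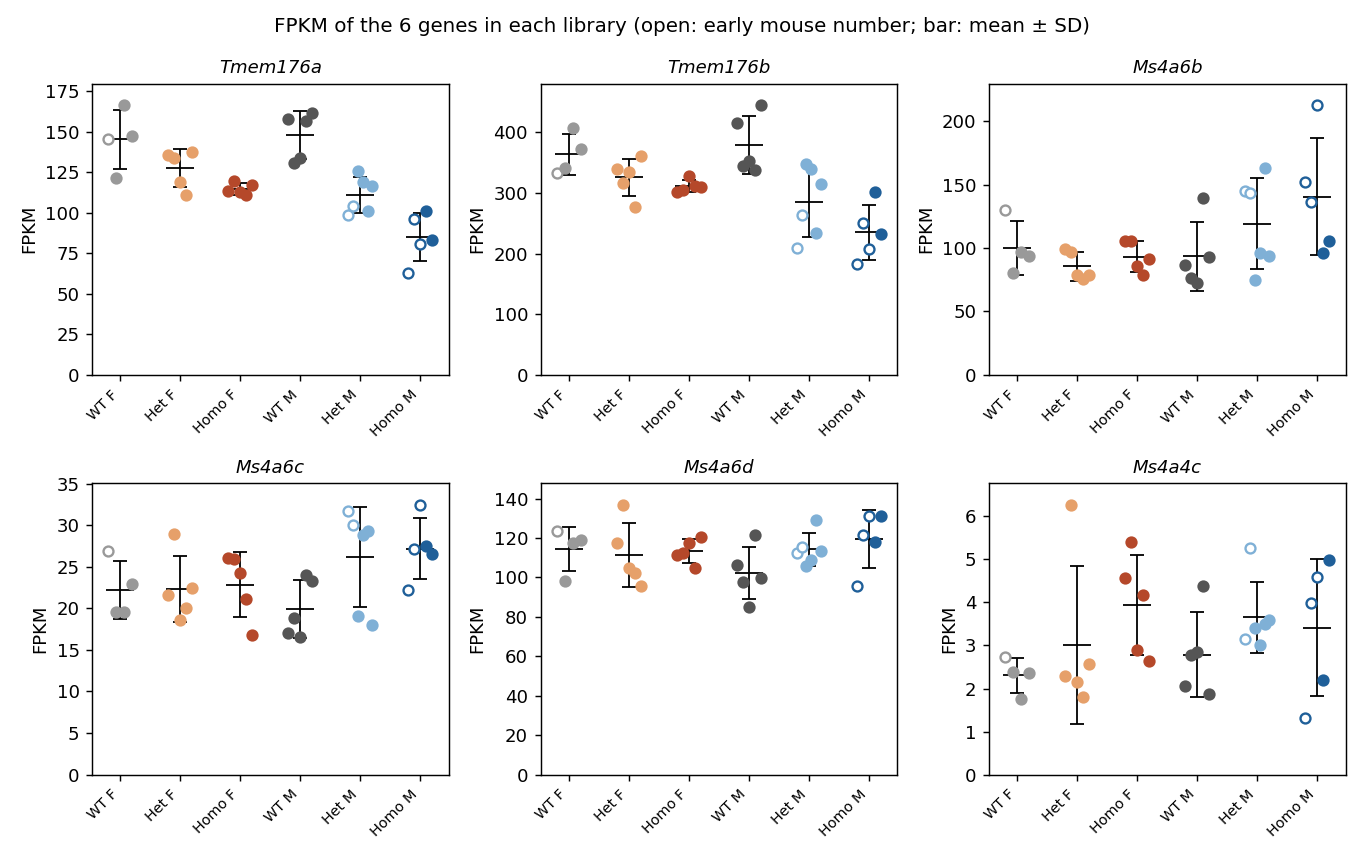
FPKM (y axes, from 0) of each gene in every library by group, with the mean and SD of each group as bars and early mouse numbers as open circles. All male Homo and male Het libraries of Tmem176a lie below the male WT libraries, whereas the groups of Ms4a6d overlap throughout.

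The comparison of female Homo with WT mice uses libraries that the choice of the genes did not use. All female Homo libraries have late mouse numbers, whereas WT-F-0122 of the female WT libraries has an early one. It had the lowest *Tmem176b* (334 FPKM) and the highest *Ms4a6b* (130 FPKM) of the female WT libraries. It sets Cre-positive mice without *Bin1* beside Cre-negative mice, so Cre and the loss of 1 *Cx3cr1* copy differ as well as *Bin1* (*Cx3cr1* averaged 1168 FPKM in female Homo and 2061 FPKM in female WT). *Tmem176a* had 114, 120, 113, 111 and 117 FPKM in the female Homo libraries and 145, 121.8, 166 and 148 in female WT. The 5 Homo values lay close together and below all 4 WT values. The mean was 115 ± 3.48 against 145 ± 18.3 FPKM (SD, n = 5 and 4), 21.0% lower. The two-sided exact permutation test gave p = 0.0159, the smallest that 5 against 4 libraries allow, and 0.238 after Benjamini-Hochberg adjustment over the 30 exact tests of the 6 genes. In the limma fit over 16897 genes the log2 fold change was -0.34 (SE 0.13), with a raw p of 0.0164 and an adjusted p of 1. The difference thus did not pass correction in either test.

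*Tmem176b* had 302, 305, 328, 311 and 311 FPKM in female Homo and 334, 341, 407 and 373 in female WT. Its groups did not overlap either, with means of 311 ± 9.85 and 364 ± 33.6 FPKM (SD, n = 5 and 4), 14.4% lower, and the exact p was again 0.0159 (adjusted 0.238). After scaling between libraries the *Tmem176b* ranges overlapped, with up to 339 FPKM in Homo and from 330.3 in WT, whereas those of *Tmem176a* stayed apart at up to 120 and from 126. The log2 fold change of *Tmem176b* was -0.22 (SE 0.17, limma adjusted p = 1). Over all genes tested, 0.663% were lower in female Homo without overlap on the deposited scale, 112 of 16897.

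*Ms4a4c* had 4.58, 5.40, 2.89, 4.17 and 2.65 FPKM in female Homo and 2.74, 2.38, 1.76 and 2.36 in female WT. In 4 of the 5 Homo libraries it was above all WT libraries. The mean was 1.70 times as high (3.94 ± 1.16 against 2.31 ± 0.406 FPKM, SD, n = 5 and 4), with an exact permutation p of 0.0317, adjusted to 0.260. In the limma fit its log2 fold change was 0.71 (SE 0.33) with an adjusted p of 1. *Ms4a6b*, *Ms4a6c* and *Ms4a6d* had log2 fold changes of -0.09 (SE 0.19), 0.03 (SE 0.15) and -0.02 (SE 0.11), and their libraries overlapped.

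A gene was called where its limma adjusted p was below 0.05 and its fold change above 1.5. Of the 6 genes 0 were called between female Homo and WT, where 0.071% of all genes were (12 of 16897, with 589 at an unadjusted p below 0.05). Between female Het and WT 0 of 6 were called, against 0.13% of all genes (22, with 668 at an unadjusted p below 0.05). *Tmem176a* had 136, 134, 119, 111 and 138 FPKM in female Het, of which 2 lay below all WT libraries, and a log2 fold change of -0.19 (SE 0.13). That of *Tmem176b* was -0.17 (SE 0.17). The exact permutation p was 0.159 for *Tmem176a* and 0.127 for *Tmem176b*, and 0.143 and 0.2 without Het-F-0206. These contrasts share the female WT libraries, so their values are not independent.

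Between female Homo and Het mice, which differ in the second *Bin1* copy, 0 of 6 were called, against 0.0118% of all genes (2, with 348 at an unadjusted p below 0.05). *Tmem176a* was 10.0% lower in Homo (log2 fold change -0.14, SE 0.12, exact permutation p = 0.0952, adjusted 0.5). Without Het-F-0206 its exact permutation p was 0.190, unadjusted. *Ms4a4c* depended on 1 library. In Het females it was 2.30, 6.26, 2.15, 1.81 and 2.57 FPKM, the high value being that of Het-F-0206. The exact permutation p against Homo, unadjusted, was 0.381 with this library and 0.0159 without it, where the Het mean was 2.21 FPKM. In the limma fit *Ms4a4c* was not called with or without Het-F-0206.

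Female and male Het mice carry the same genotype label, and 0 of 6 genes were called between them, against 0.0533% of all genes (9, with 2563 at an unadjusted p below 0.05). *Tmem176a* was 98.9, 104, 126, 119, 101 and 117 FPKM in male Het and on the mean 1.15 times as high in females (127 ± 11.8 against 111 ± 10.9 FPKM, SD, n = 5 and 6). Of the female libraries 3 lay above all males, with an exact permutation p of 0.0346 (adjusted 0.260), which was 0.0762 without Het-F-0206, 0.0397 without Het-M-0199 and 0.0794 without both. *Ms4a6b* was 28.1% lower in female than in male Het mice (85.7 ± 11.4 against 119 ± 35.6 FPKM, SD, n = 5 and 6), with an exact permutation p of 0.121 and a limma adjusted p of 0.323. *Ms4a4c* had an exact permutation p of 0.494 between the sexes and 0.437 without Het-M-0199, both unadjusted. It was 0.00952 without Het-F-0206 and 0.0159 without both libraries, also unadjusted and each the smallest possible for those libraries. The limma adjusted p of *Ms4a4c* was 0.345 to 0.813 over the alternative settings. Early mouse numbers were held by 2 of the 6 male and by 0 of the 5 female Het mice.

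**Figure D3:**
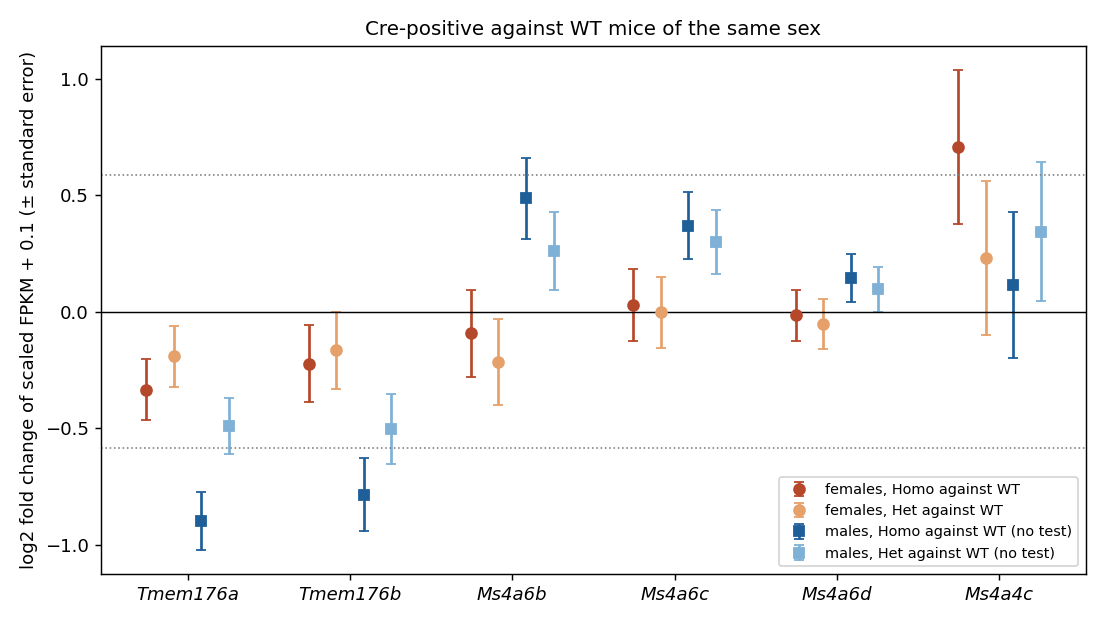
Log2 fold changes (y axis, ± standard error, from the limma fit on scaled FPKM + 0.1) of Homo and Het against WT mice of the same sex, for the 6 genes; dotted lines mark a 1.5-fold difference. The Tmem176 genes lie below 0 in all 4 comparisons, from -0.17 to -0.90, and the male values, which the choice of genes used or whose WT libraries it used, carry no test.

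In males, where the choice was made, *Tmem176a* was 63.0, 96.1, 81.0, 101 and 83.1 FPKM in Homo and 158, 131, 134, 156 and 161 FPKM in WT. All 5 Homo libraries were below all WT libraries, and so were all 6 Het libraries. WT averaged 148 ± 14.6 FPKM (SD, n = 5). Homo averaged 84.9 ± 14.9 FPKM (SD, n = 5), 42.7% lower, and Het 111 ± 10.9 FPKM (SD, n = 6), 25.1% lower. The log2 fold changes were -0.90 (SE 0.12) for Homo and -0.49 (SE 0.12) for Het. Over all genes, 1.37% were lower without overlap in male Homo and 0.326% in male Het, and nothing is read from these counts because the choice used the contrast or its WT libraries.

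*Tmem176b* was 184, 249.95, 207.5, 301 and 233 FPKM in male Homo and 416, 345, 353, 338 and 445 FPKM in male WT. The 5 Homo libraries lay below all WT libraries, with a log2 fold change of -0.79 (SE 0.16). In male Het mice it was 209, 264, 349, 339, 233.98 and 314 FPKM, 4 of 6 below all WT libraries, with a log2 fold change of -0.50 (SE 0.15). Without Het-M-0199 the log2 fold changes of male Het against WT were -0.52 for *Tmem176a* and -0.57 for *Tmem176b*. On scaled log2 values, *Tmem176a* and *Tmem176b* were the 2 of the 6 genes that differed by more than 1.5-fold between male Homo and WT. The mean deposited FPKM of *Ms4a6b* was 1.502 times as high in male Homo as in WT. On the scaled values 18.6% of all genes differed by more than 1.5-fold. Between male Het and WT 0 of 6 did, where 13.9% of all genes had that size. These shares rest on fold changes without a test, and nothing is read from them.

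*Ms4a6b* and *Ms4a6c* were instead higher on the mean in the same libraries. *Ms4a6b* was 152, 136, 213, 96.0 and 105 FPKM in male Homo and 86.5, 76.0, 72.1, 140 and 92.98 FPKM in male WT, where WT-M-0202 alone was above 100 FPKM. The log2 fold change was 0.49 (SE 0.17), and 2 of the 5 Homo libraries exceeded all WT libraries. *Ms4a6c* was above all WT libraries in 4 of 5 male Homo and 4 of 6 male Het libraries, with log2 fold changes of 0.37 (SE 0.14) and 0.30 (SE 0.14). *Ms4a6d* differed by 0.15 (SE 0.10) and *Ms4a4c* by 0.11 (SE 0.31) on the log2 scale between Homo and WT. The sign for *Ms4a4c* was not stable, with -0.071 to 0.43 when single libraries were left out, below 0 without Homo-M-0109, Homo-M-0190 or WT-M-0258, and it was -0.01 (SE 0.37) in the early-numbered Homo mice alone.

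Means of part of these levels differed with mouse number. In male Homo mice *Tmem176a* was 63.0 to 96.1 FPKM in early and 83.1 to 101 FPKM in late numbers. *Tmem176b* was 184 to 249.95 FPKM in early and 233 to 301 FPKM in late ones, so the libraries of both genes overlapped. Against the male WT mice, which all have late numbers, *Tmem176a* had a log2 fold change of -1.04 (SE 0.12) in the 3 early-numbered male Homo mice and -0.69 (SE 0.14) in the 2 late-numbered ones. Their means were 80.1 and 92.2 FPKM. For *Tmem176b* the log2 fold changes were -0.97 (SE 0.15) and -0.52 (SE 0.17). *Ms4a6b* had 0.72 (SE 0.18) in early and 0.14 (SE 0.21) in late numbers, with means of 167 and 101 FPKM. The log2 fold change of *Ms4a6c* was 0.32 (SE 0.16) in early and 0.45 (SE 0.19) in late numbers. For early numbers, genotype and number cannot be told apart in males, because no male WT mouse has one. With late numbers alone, the 4 male Het mice had a log2 fold change of *Tmem176a* of -0.38 (SE 0.11) and of *Tmem176b* of -0.32 (SE 0.13).

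Early and late male Het mice carry the same genotype label, although the late-numbered Het-M-0199 had *Bin1* in the range of the Homo libraries. *Tmem176b* was 209 and 264 FPKM in the early libraries and 349, 339, 233.98 and 314 in the late ones. The log2 fold change was -0.54 (SE 0.17, limma adjusted p = 0.0388), a fold below 1.5. It ranged from -0.75 to -0.33 when single libraries were left out. The exact permutation test of 2 against 4 libraries gave 0.267 and cannot go below 0.133. Without Het-M-0199 the log2 fold change of *Tmem176b* was -0.49 (limma adjusted p = 0.0901), and the exact permutation p of 2 against 3 libraries was 0.4, where 0.2 is the smallest possible. *Tmem176a* had a log2 fold change of -0.35 (SE 0.15, limma adjusted p = 0.116) and *Ms4a6b* one of 0.33 (SE 0.21, adjusted p = 0.314). *Ms4a6c* was 31.7 and 30.0 FPKM in the early libraries, above the late ones at 19.03, 28.9, 29.3 and 18.0, as 20.4% of all genes were. Of the 6 genes 0 met the call rule, against 7.82% of all genes (1322, with 4849 at an unadjusted p below 0.05).

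The late-numbered Het-M-0203 stood with the early libraries, at 233.98 FPKM of *Tmem176b* and 163 of *Ms4a6b*. Without it, *Tmem176b* met the call rule between early and late male Het mice (log2 fold change -0.72, limma adjusted p = 0.000991). Without Het-M-0108 the log2 fold change of *Tmem176b* was -0.75, and without Het-M-0100 it was -0.33. Each of these fits had 1 early library, so no test of them is given. Relative depth was 0.723 in Het-M-0100, 0.727 in Het-M-0203 and 0.669 in Homo-M-0093, the 3 lowest of the 30 libraries. Homo-M-0109 had a relative depth of 0.920 at 207.5 FPKM of *Tmem176b*, and Homo-M-0190 one of 1.41 at 233 FPKM. The part of depth in these levels was not tested.

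Across the 30 libraries the *Tmem176* genes kept a nearly fixed ratio. *Tmem176a* was 0.385 ± 0.0339 (SD, n = 30) times *Tmem176b*, with a range from 0.336 to 0.473 and group means from 0.362 in male Homo to 0.399 in female WT. Pearson's r of their log2 levels was 0.94, and 0.89 once the group means were removed, the highest of all 16820 genes compared with *Tmem176a*. The overlap of their annotated start regions and the shared libraries enter this value. *Tmem176b* and *Ms4a6b* went opposite ways, with r = -0.73 over 30 libraries, -0.65 with group means removed and -0.50 with the means of groups and number ranges removed. The ratio of *Ms4a6b* to *Tmem176b* ran from 0.204 in WT-M-0178 to 1.02 in Homo-M-0109. Among the Ms4a members, r with group means removed was 0.49 for *Ms4a6b* and *Ms4a6c*, 0.51 for *Ms4a6c* and *Ms4a4c* and 0.55 for *Ms4a6d* and *Ms4a4c*. These are descriptions over libraries of 6 groups that share preparation and depth.

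**Figure D4:**
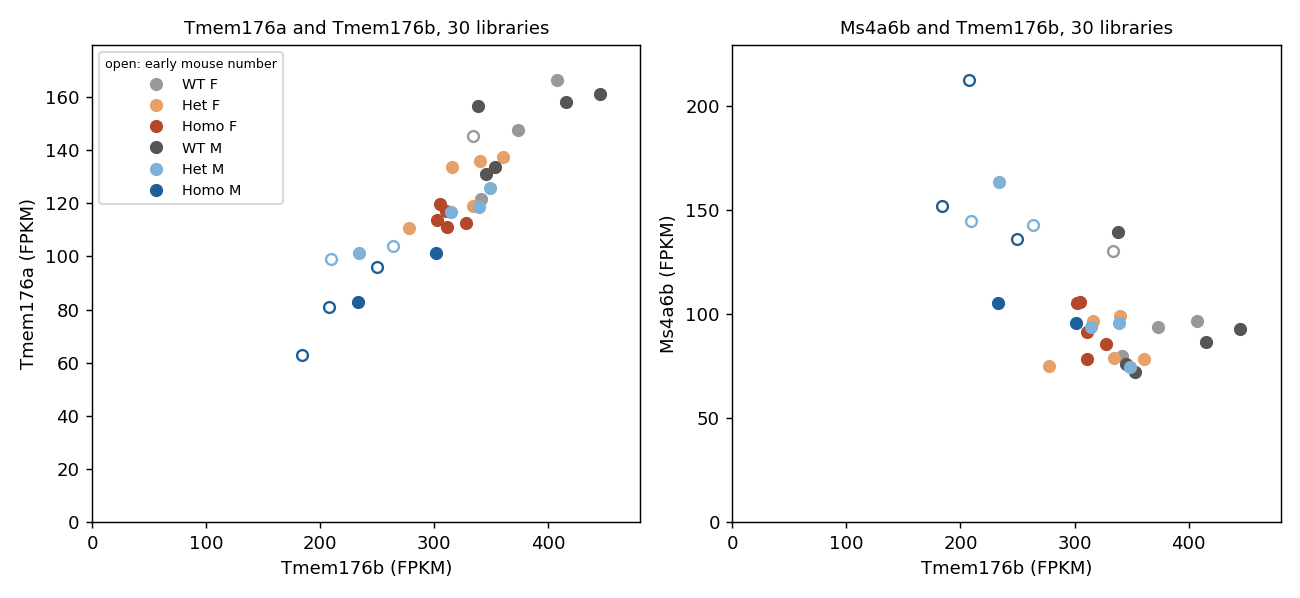
FPKM of Tmem176a (left) and Ms4a6b (right) against Tmem176b in the 30 libraries, coloured by group, with early mouse numbers open. Tmem176a rises with Tmem176b (r = 0.94 on log2 levels), whereas the libraries with the least Tmem176b, male Homo and Het, include those with the most Ms4a6b, up to 213 FPKM.

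The genes most like *Tmem176a* over the 30 libraries after removal of group means, members aside, were *Dctn2* (r = 0.88), *Tiprl* (0.87), *Yif1b* (0.87), *Mrps27* (0.86) and *Psmc2* (0.86). Without Het-F-0206 they were *Siglech* (0.89), *Dctn2* (0.88), *Tiprl* (0.87), *Yif1b* (0.87) and *Mrps27* (0.86). *Dctn2* encodes a dynactin subunit and *Psmc2* a proteasome subunit, while *Siglech* is a microglial surface lectin. *Ms4a6d* ranked 1436 of 16820 (r = 0.55) and *Ms4a6b* 13136 (r = -0.37).

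The other Ms4a genes tested did not meet the call rule in any of the 5 tested contrasts. *Ms4a4a*, a gene of macrophages, was 1.14 ± 0.495 FPKM in female WT, 0.573 ± 0.452 in female Het and 0.977 ± 0.525 in female Homo mice (SD, n = 4, 5 and 5). The log2 fold change of female Het against WT was -1.22 (SE 0.52, limma adjusted p = 1). In males it was 1.63 ± 0.736 FPKM in WT, 0.896 ± 0.203 in Het and 0.477 ± 0.247 in Homo (SD, n = 5, 6 and 5), a log2 fold change of -1.67 (SE 0.49) for Homo, described without a test. *Ms4a7* differed by -0.02 (SE 0.39) between female Homo and WT and by -0.49 (SE 0.36) between male Homo and WT.

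Other immune genes of microglia were looked at as lists in female Homo against WT mice. Of 10 interferon response genes 0 were called, with a median log2 fold change of 0.35, from 0.07 for *Irf7* to 0.67 for *Ifi204*, beside 0.00 over all genes tested. Of 6 MHC class II genes 0 were called, with a median of -0.05 and a range from -0.21 for *H2-Aa* to 0.23 for *H2-DMb1*. None of 6 inflammasome genes was called (median 0.01), the highest being the cytokine *Il1b* at 0.78 (SE 0.28, limma adjusted p = 1). Of 5 genes around TREM2, 0 were called (median 0.08), with *Trem2* at 0.15. In male Homo against WT, described without a test, the medians were -1.06 for MHC class II and -0.11 for interferon response genes. They were 0.32 for inflammasome genes and 0.05 for the genes around TREM2, beside 0.03 over all genes tested. The interferon response genes summed to 80.5 to 209 FPKM in male WT libraries, with a median sum of 86.2. In male Het against WT the MHC class II median was -1.06 as well. In early against late male Het mice, 1 of 6 MHC class II genes (*H2-DMa*) and 1 of 5 TREM2 genes (*Adam10*) were called lower, beside 2.4% of all genes, and 0 of each were called higher. The median log2 fold change was 0.30 for the MHC class II list, above the 0.08 of all genes tested, and -0.35 for the TREM2 list. Of 7 microglial markers 2 were called lower as well, *Tmem119* at -0.63 and *Fcrls* at -0.67 (limma adjusted p = 0.0164 and 0.0276), and the median of the list was -0.46, beside 0.08 over all genes tested. The summed FPKM of these markers was 11783 to 12932 in the early and 13279 to 16318 in the late male Het libraries, and its part in the values of the members was not tested.

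Marker levels of other cells are given because *Tmem176* and Ms4a genes are also made by other myeloid cells. The summed FPKM of 9 border macrophage markers was 19.2 to 50.5 in male WT, 14.5 to 32.1 in male Homo, 14.4 to 26.0 in male Het, 20.1 to 36.7 in female WT and 14.5 to 43.1 in female Homo libraries. Of 6 dendritic cell markers the sum was 2.38 to 6.09 FPKM over all groups. Neutrophil markers (8 genes) summed to 43.9 to 349 FPKM in male WT and 0 to 80.8 in male Homo. In females the sum was 6.80 to 159 FPKM in WT (median 42.7) and 0.219 to 72.0 in Homo (median 11.7), and 0 of the 7 tested were called, with a median log2 fold change of -1.62. Their part in the *Tmem176* and Ms4a levels was not tested. Fewer cells of a type and less RNA per cell cannot be told apart in bulk samples.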

How the data were processed

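RNA of sorted microglia from 30 mice of 6 groups was analysed. Per the methods of the study, the authors amplified cDNA with a SMARTer kit, made Nextera XT libraries, aligned reads to mm10 with OSA4, estimated abundance with RSEM, removed outlier samples and deposited FPKM per gene without a logarithm. The deposited table also holds 6 columns that match no listed sample and were not used here. The study tested counts with DESeq2, which FPKM do not allow. Absolute depth is unknown; relative depth, from the steps of low values, was 0.669 to 1.41.

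FPKM were scaled by the median of ratios (genes with a mean of at least 1), 0.1 was added, and log2 values of the 16897 genes with a mean of at least 0.1 were fitted with limma 3.58.1 (R 4.3.3) in 6 groups with an intensity trend, and in 8 groups with male Het and Homo mice divided by number. This scale understates changes of low genes. A call needed a fold change above 1.5 and p below 0.05 after Benjamini-Hochberg adjustment. The script was tested on simulated data. Members were also compared on deposited FPKM by two-sided exact permutation tests (scipy 1.17.1), 30 in all, and again, without adjustment, leaving out Het-F-0206, Het-M-0199 or both. The p-values measure the spread between mice.

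The members and lists were chosen with earlier results of these data known. Named genes are the members, the other Ms4a genes, *Bin1*, *Cx3cr1*, the 5 genes most correlated with *Tmem176a*, and up to 3 extremes per list. A few markers and sequences are not reported here. Alternatives were other pseudocounts, filters, scalings, weights, sample sets, number range as a covariate and leaving out each library.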

Additional observations from a re-analysis of the deposited data

Results flagged for a closer look

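In 36 sets of values (6 genes in 6 groups), a library far from the others of its group was sought, and chance alone marks about 1 in 20. There were 2, both for *Ms4a4c*. Het-F-0206 had 6.26 FPKM, beside 2.57 FPKM in the next female Het library, and the gap was 0.828 of the range of the group. This is the library whose *Bin1* and *Cx3cr1* go against its label. Het-M-0108 had 5.26 FPKM, beside 3.59 FPKM in the next male Het library, and the gap was 0.739 of the range. *Ms4a4c* is the least abundant of the 6 genes.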

How the results depend on the processing

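Between female Homo and WT, female Het and WT, female Homo and Het, and female and male Het mice, 0 of the 6 genes were called under every alternative run. Between early and late male Het mice the count was 1 (*Tmem176b*) instead of 0 with array weights and without Het-M-0203. Fits without Het-M-0100 or Het-M-0108 left 1 early library, and their calls are not counted. In males, where no test was made, the count of genes past a 1.5-fold difference in Homo against WT was 1 instead of 2 with number range as a covariate. It was 1 with late numbers only and 2 to 3 when single libraries were left out. In Het against WT it was 0 to 1 when single libraries were left out, 1 (*Tmem176b*) without Het-M-0197. *Tmem176a* and *Tmem176b* kept the sign of their log2 fold change in all tested contrasts under every alternative. In female Homo against WT it was -0.41 to -0.27 for *Tmem176a* and -0.33 to -0.17 for *Tmem176b*. The sign was also kept in male Homo and in male Het against WT. The choice of genes used the first of these contrasts and the WT libraries of the second, so nothing is read from that.

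Signs of small differences turned, and the cause was not tested. *Ms4a6b* was 0.021 in female Homo against WT with number range as a covariate, and *Ms4a6c* in female Het against WT was 0.0022 without scaling, 0.0023 with quantile normalization and 0.029 with the covariate. *Ms4a6d* in female against male Het was -0.045 without scaling and -0.014 with the covariate, and *Ms4a4c* in early against late male Het was -0.10 with quantile normalization. Leaving out single libraries gave, in female Homo against WT, -0.19 to 0.027 for *Ms4a6b*, -0.030 to 0.13 for *Ms4a6c* and -0.080 to 0.011 for *Ms4a6d*. In female Het against WT it gave -0.096 to 0.078 for *Ms4a6c*, -0.12 to 0.00037 for *Ms4a6d* and -0.060 to 0.36 for *Ms4a4c*, lowest without Het-F-0206. In female Homo against Het it gave -0.032 to 0.14 for *Ms4a6c* and -0.016 to 0.11 for *Ms4a6d*. It gave -0.041 to 0.083 for *Ms4a6d* in female against male Het and -0.29 to 0.51 for *Ms4a4c* in early against late male Het, lowest without Het-M-0108. In male Homo against WT, *Ms4a4c* was -0.071 to 0.43 when single libraries were left out and -0.012 with quantile normalization.

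Over all genes, calls ranged from 7 to 36 (12 as reported) in female Homo against WT, 9 to 63 (22) in female Het against WT, 0 to 2 (2) in female Homo against Het, 8 to 22 (9) between the sexes, and 4 to 2901 (1322) in early against late male Het. No paired analysis was possible because no mouse number occurs in more than 1 group. Without read totals, counting error cannot be given, which weighs most on *Ms4a4c* and *Ms4a4a*.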
